A study of Lolium arundinaceum with 18 samples.

Results

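AP2/ERF transcription factors of tall fescue leaves were taken here as every unigene whose description named an ethylene-responsive transcription factor or element, a dehydration-responsive element-binding protein, a DREB protein or an AP2-type product. This rule found 133 members among 109684 unigenes, the transcripts that the authors assembled from the reads without a reference genome. By their descriptions, 80 members were ERFs, 18 were RAP2 factors, 9 were DREB1 proteins, 5 were DREB2 proteins, 7 were AP2-like proteins and 14 had another description that named AP2. The label did not suit 4 members, which matched through a part of their names: 2 GDAP2 homologs, an AP2-associated protein kinase and an RPAP2-type phosphatase. They were kept in all counts, and without them the 12 calls of the drought comparison were the same in number. The AP2 domain was listed for 65 members. The transcription factor family column gave ERF for 76, AP2 for 7, RAV for 4, B3 for 1 and no family for 45.

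AP2/ERF proteins are a large family of plant transcription factors that share the AP2 DNA-binding domain, first described in the floral regulator APETALA2. In Arabidopsis, ERF-type members bind promoters of ethylene- and pathogen-responsive genes, and many of them answer wounding and jasmonate within a short time. DREB-type members bind the dehydration-responsive element. DREB1 proteins are known mainly for responses to cold, and DREB2 proteins for responses to drought and heat, where control after transcription also matters.

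After 20 days of treatment, leaf RNA from 6 groups was sequenced, with 3 libraries per group and 18 in all. Under normal conditions (65 to 75% of field capacity), CK leaves received double-distilled water as a spray, the Si NPs group with 300 mg/L silicon nanoparticles and the CNCs group with 100 mg/L cellulose nanocrystals. The DS, DS_Si NPs and DS_CNCs groups were grown at 35 to 45% of field capacity with no particle, with the same Si NPs dose and with the same CNCs dose. The Methods name a surfactant for the particle solutions, only water for CK and no spray for DS. An effect of the surfactant therefore cannot be told apart from that of a particle, in watered or in drought plants. Under drought the same holds for an effect of spraying. Nothing in the labels says how many plants went into a library, and p-values measure the spread between these libraries, which may be technical. In whole leaves, fewer cells of a type and less RNA per cell cannot be told apart.

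Library totals ranged from 16175624 to 26102122 estimated counts. CK replicate 3 stood apart. At 138 unigenes CK replicates 1 and 2 differed by more than 8-fold, and replicate 3 lay between them at all of these (100%), whereas libraries of the other groups lay between their own replicates at 51.4 to 87.5% of such unigenes. Whether replicate 3 holds material of the other CK libraries was not tested. If it did, CK would have fewer than 3 independent libraries and the p-values of every comparison with CK, and of the interactions, would be too small. All 6 libraries of DS_Si NPs and DS_CNCs resembled a library of another group more than one of their own. The leaf origin was not in doubt, since chlorophyll-binding and Rubisco small subunit unigenes summed to between 49416.2 and 134834.5 TPM in every library (TPM, a transcript abundance scaled for length and library size).

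Low counts left 42 members out of the tests, 27 of them shorter than 300 bp, and 91 members were tested. A member high in 1 group could pass the filter through that group alone. The tested members had a median length of 780 bp and the others 261.5 bp, so a part of the family was seen as fragments. In 13 assembly clusters 2 or 3 members shared a cluster, and reads may have been split between them. In this text, a member rose or fell where the edgeR quasi-likelihood test gave a Benjamini-Hochberg adjusted p below 0.05 over all 55979 tested unigenes with an absolute log2 difference over 2. Differences on the log2 scale are given with their standard error.

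Several abundant members were nearly level across treatments or shifted by less than the fold threshold. The 2 most abundant ERFs, ERF4 (DN1556_c0_g1) and ERF5-like (DN767_c1_g1), were not, and their values are given further below. RAP2-4 (DN1533_c0_g1), which in Arabidopsis takes part in light and drought responses, averaged 131 TPM. It stood at 95.8, 140 and 124 TPM in CK, 110, 130 and 146 TPM in DS, and between 92.1 and 176 TPM over all libraries. Its log2 difference was 0.27 ± 0.19 between CK and DS (adjusted p = 0.464). A RAP2-13-like member (DN9515_c0_g1) averaged 85.3 TPM, with a range from 57.1 to 152 TPM. Its log2 difference between DS and DS_CNCs was 0.80 ± 0.25 (adjusted p = 0.0565). The ERF-like protein At4g13040 (DN16521_c0_g1) spanned 37.8 to 66.9 TPM, a 1.77-fold range and the narrowest among tested members with a mean of at least 10 TPM. Between DS and DS_Si NPs it differed by 0.58 ± 0.17 (adjusted p = 0.0522). Of the 4 tested AP2-like members none was called. BBM1 (DN4099_c0_g1), named for a regulator of embryo formation, lay between 14.0 and 27.1 TPM, and TOE3 (DN5614_c0_g1), named for a repressor of flowering, between 5.56 and 16.7 TPM. The At1g16060-type member (DN19792_c0_g1) was low, at 2.19, 1.5 and 2.03 TPM in DS and 3.84, 4.18 and 2.35 TPM in DS_Si NPs, a difference of 0.91 ± 0.34 (adjusted p = 0.106).

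In contrast, ERF3-, ERF4-, ERF5-, ERF9- and ERF109-type members varied widely between libraries, often within a group. ERF5-like (DN767_c1_g1) stood at 2.27, 51.5 and 21.1 TPM in the CK libraries and at 175, 15.0 and 218 TPM in DS_CNCs. ERF9 (DN41151_c0_g1), a repressor in Arabidopsis, ran from 0.97 to 203 TPM and ERF3-like (DN10813_c0_g1) from 1.41 to 179 TPM. The 133 members summed to 711, 1089 and 917 TPM in CK, the lowest of the 6 group means, and to 1388, 2697 and 2433 TPM in DS. In DS_CNCs the sums were 1864, 1011 and 4542 TPM. Replicate 2 of DS_CNCs therefore overlapped CK, and replicate 3 exceeded every other library. The median standard deviation of log2(TPM + 0.5) within a group was 0.88 in DS_CNCs and 1.11 in DS_Si NPs for tested members, against 0.58 and 0.69 for all tested unigenes. In DS it was 0.84 against 0.52, and in CK 0.48 against 0.39.

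**Figure D1:**
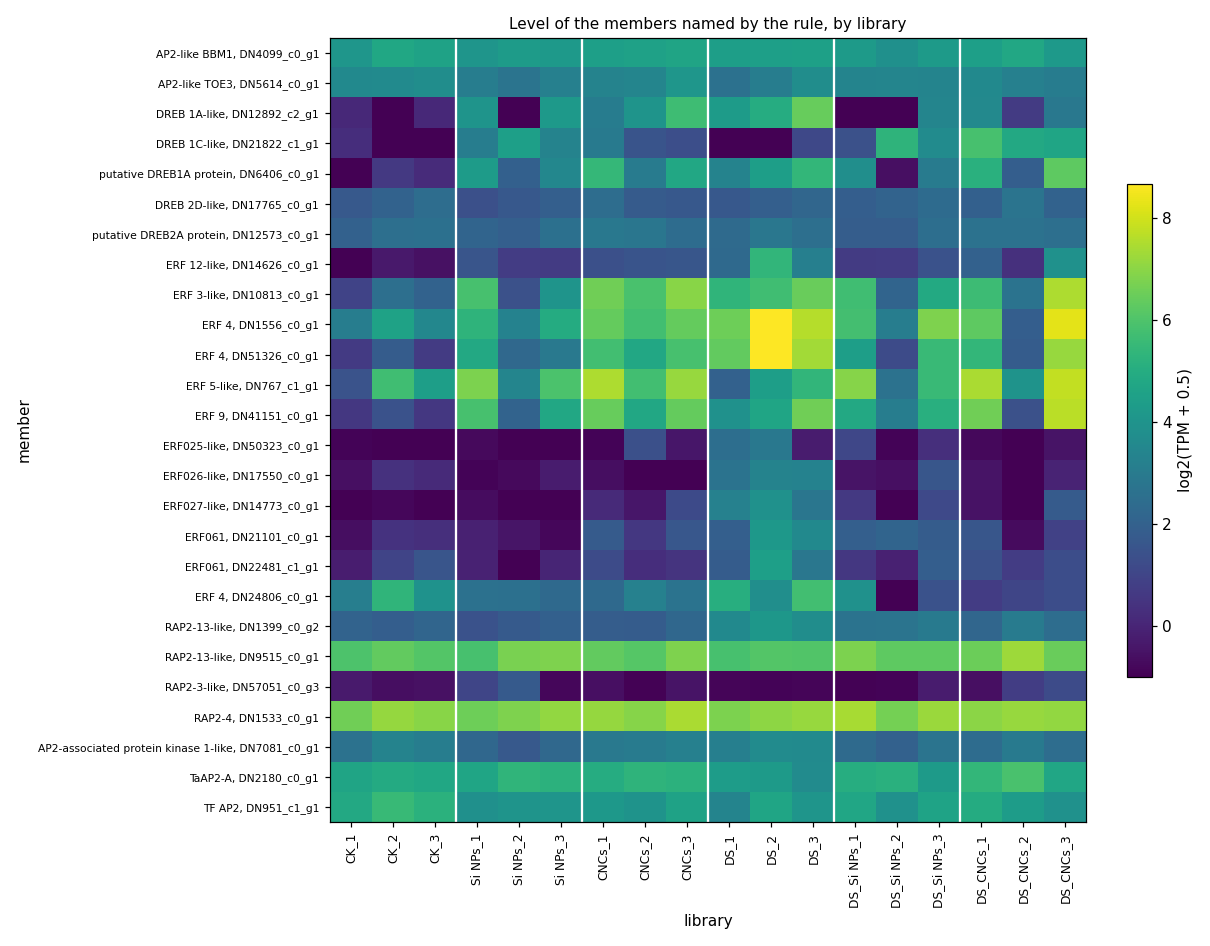
Level of the 26 members named by the rule in each library, as log2(TPM + 0.5), with groups parted by white lines. RAP2-4 and RAP2-13-like (DN9515_c0_g1) are bright in every library, while ERF9 (DN41151_c0_g1), ERF3-like (DN10813_c0_g1) and ERF4 (DN51326_c0_g1) are dim in CK and bright in DS_CNCs replicate 3.

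The first comparison asked how these factors differed between DS and CK plants. Since CK leaves were sprayed with water and no spray is named for DS, drought and the lack of spraying cannot be told apart in it. Compared to CK plants, 12 of the 91 tested members rose in DS and 0 fell. Over all tested unigenes 2.01% were called, 1.59% as higher. The median log2 difference was 0.97 for tested members, or 0.96 with members of at most 3 counts in a group held at their bound, against 0.00 for all unigenes. In 36 members (39.6%) all DS libraries lay above all CK libraries, compared with 10.8% of all unigenes, and in 6 (6.59%) below, compared with 15.0%. Of the 12 that rose, 11 were ERFs and 1 was a RAP2 factor. Another 2 members passed the adjusted p but not the fold: ERF3-like (DN3794_c0_g1) at 1.55 ± 0.37 and ERF1 isoform X1 (DN9433_c0_g1) at 0.58 ± 0.14.

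The lowest adjusted p belonged to a RAP2-13-like member (DN1399_c0_g2), a relative of RAP2-4. It stood at 3.76, 3.26 and 3.91 TPM in CK and at 11.7, 17.0 and 12.9 TPM in DS. No library of the 15 outside DS passed 7.63 TPM. The rise was 2.05 ± 0.31 on the log2 scale (adjusted p = 0.00347), just past the fold threshold, which it missed without CK replicate 2 or DS replicate 2. ERF12-like (DN14626_c0_g1), whose Arabidopsis namesake is a repressor, held 0, 0.29 and 0.17 TPM in CK and 4.49, 40.5 and 8.50 TPM in DS. With 3 counts in CK and 478 in DS, the ratio was 170-fold with a 95% exact counting interval from 58.0 to 830 (adjusted p = 0.00839 in edgeR). Counting intervals cover no spread between libraries.

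Among the 12, ERF4 proteins, repressors in Arabidopsis that dampen ethylene and jasmonate responses, reached the highest levels in DS. One ERF4 member (DN51326_c0_g1) stood at 1.05, 3.06 and 1.09 TPM in CK and at 82.1, 403 and 163 TPM in DS, a rise of 7.17 ± 1.47 (adjusted p = 0.0154). A second (DN1556_c0_g1) went from 8.11, 23.6 and 10.6 TPM to 93.0, 409 and 195 TPM, and ERF4-like (DN19308_c0_g1) from 9.16, 20.3 and 16.4 TPM to 44.0, 155 and 83.8 TPM. In all of these, DS replicate 2 was the highest library of the 18 and the groups did not overlap. The 6 ERF4-type members together summed to between 31.6 and 88.2 TPM in CK and between 252 and 1007 TPM in DS.

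The 13 ERF109-type members, named for a redox-responsive factor of Arabidopsis that links wounding and jasmonate, were nearly silent in CK. Their sum was 4.8, 1.0 and 1.5 TPM there and 179, 195 and 75.4 TPM in DS. Of 8 tested, 4 rose (DN14611_c0_g1, DN18363_c0_g1, DN1399_c1_g1 and DN9715_c0_g1) and all 8 differences were positive. Members near 0 in CK passed the filter only through groups where they were higher, so positive signs were partly set in advance. The ERF109 kind was also grouped after its values were seen. For DN9715_c0_g1 the CK libraries held 0, 0 and 0.11 TPM and the DS libraries 49.1, 14.3 and 15.8 TPM. This was 1 count against 740, a ratio of 792 with a counting interval from 142 to 31300 (adjusted p = 0.0463 in edgeR).

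ERF025-, ERF026- and ERF027-type members belong to the DREB subfamily and were low everywhere but in DS. ERF027-like (DN14773_c0_g1) stood at 9.09, 14.3 and 6.41 TPM in DS, at 0, 0.06 and 0 TPM in CK and at no more than 2.91 TPM in any other library (adjusted p = 0.0253). ERF026-like (DN17550_c0_g1) held 5.89, 9.45 and 9.40 TPM in DS against 0.16, 0.81 and 0.62 TPM in CK, and its difference of 3.88 ± 1.17 missed the threshold (adjusted p = 0.0778). ERF025-like (DN50323_c0_g1) rose from 0.03, 0 and 0 TPM to 5.19, 6.92 and 0.33 TPM. ERF061 (DN21101_c0_g1) rose from 0.14, 0.82 and 0.72 TPM to 3.35, 17.6 and 11.4 TPM, a difference of 4.10 ± 0.86 (adjusted p = 0.0170). A second ERF061 unigene (DN22481_c1_g1) reached 21.4 TPM in DS replicate 2 and differed by 3.24 ± 0.94 (adjusted p = 0.0672).

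**Figure D2:**
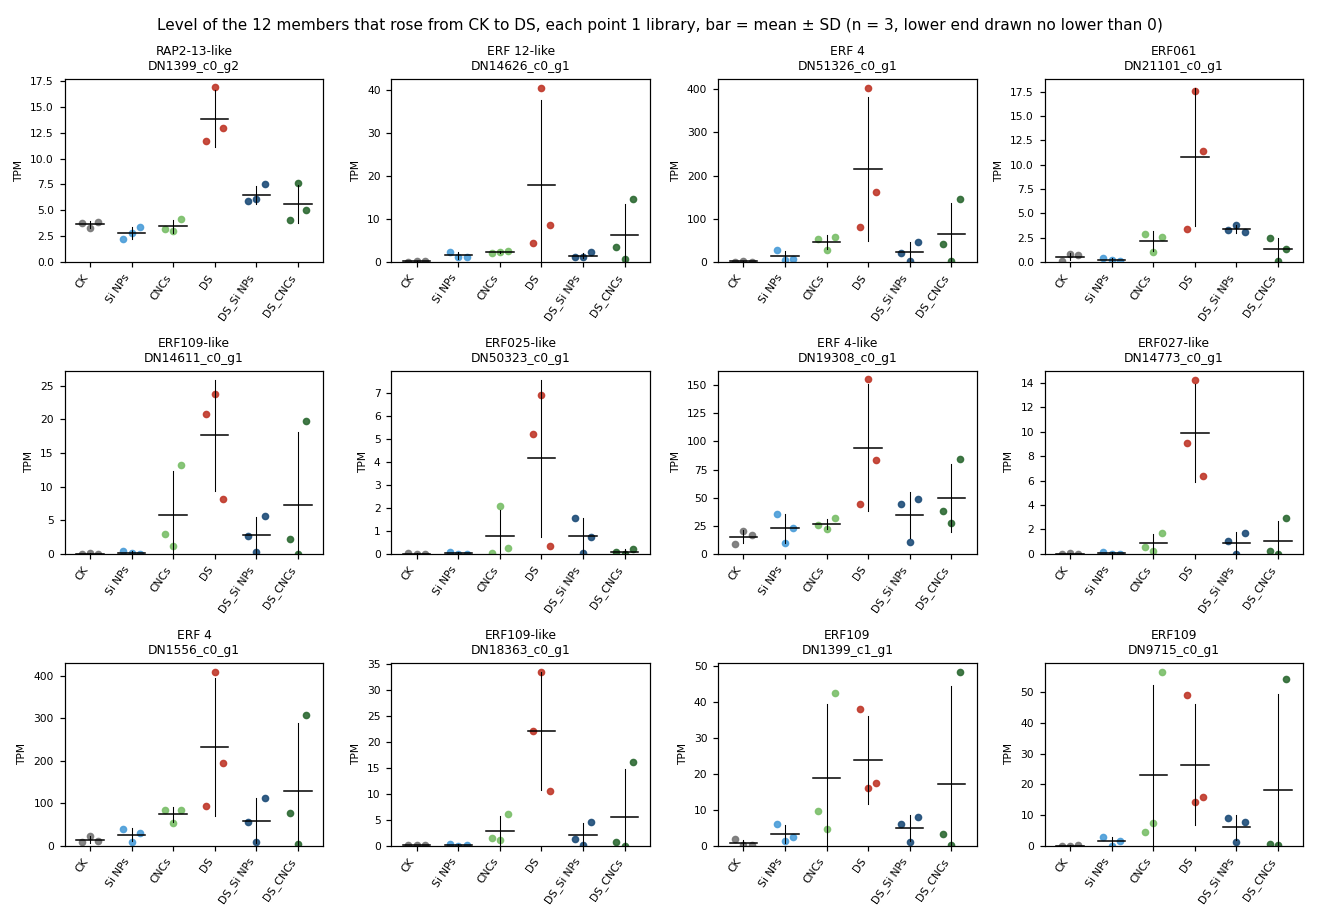
TPM of the 12 members that rose from CK to DS, with 1 point for each library, a bar at the mean and a line of 1 SD (n = 3). DS lies above CK in each panel, and DS_CNCs replicate 3 is high for several ERF4 and ERF109 members although the other DS_CNCs libraries are low.

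Most of these calls were lost when any CK library or DS replicate 2 was left out, which also leaves fewer libraries in that group. Of the 12, 2, 0 and 2 were still called without CK replicate 1, 2 or 3, 1 without DS replicate 2, and 9 and 10 without DS replicates 1 and 3. Without CK replicate 3 the share of all unigenes called was 0.239%. DESeq2 called 29 members, all of the 12 among them, where 5.74% of all unigenes were called. The edgeR exact test called 26 of the 72 members it covered (6.79% of all unigenes). A list of touch- or wound-responsive products (TIFY/JAZ, WRKY, ZAT and calmodulin-like proteins) moved with these members. Of its 160 unigenes, tested or not, 23 rose and 1 fell, while 1.59% of all tested unigenes were called higher. Its sum was 1082 to 1285 TPM in CK and 4647 to 5350 TPM in DS. Over the 18 libraries the log2 sum of the members had r = 0.86 with that of the touch or wound list, and r = 0.82 after subtraction of group means, as a description of libraries that share the treatment and the harvest. The same values were 0.65 and 0.82 for a list of DREB target products and 0.69 and 0.66 for ethylene pathway unigenes, so the relation was not particular to the touch or wound list. The part of handling or harvest in these differences was not tested.

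DREB2-type members gave no call by the main test in any comparison. Of 5, only 3 were tested. Putative DREB2A (DN12573_c0_g1) stood at 3.54, 5.27 and 5.48 TPM in CK, 4.58, 6.63 and 5.36 TPM in DS and between 3.10 and 6.83 TPM in all libraries. The difference under drought was 0.38 ± 0.24 (adjusted p = 0.402). DREB2D-like (DN17765_c0_g1) held 3.80 ± 1.17 TPM in CK and 3.39 ± 0.71 TPM in DS (SD, n = 3), a log2 difference of 0.02 ± 0.26. The unigene described as DREB 2A (DN14491_c0_g1) stood at 2.63, 2.59 and 2.79 TPM in CK and at 1.43, 1.36 and 3.06 TPM in DS. The median difference of the 3 was 0.02 under drought, and it stayed between -0.18 and 0.04 in the 4 comparisons of a particle with its control.

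DREB1-type members were at or near 0 in CK and higher in most other libraries. The class was set by description alone, so a unigene described as AP2 domain CBF protein (DN9673_c0_g1) is not in it. The unigene that the paper lists as DREB1B (DN37211_c0_g1) is also absent, since the rule did not match its description. The 9 members summed to 2.2, 2.9 and 2.0 TPM in CK, 61.5, 25.1 and 49.9 TPM in Si NPs, 104, 31.5 and 112 TPM in CNCs, and 41.2, 84.0 and 151 TPM in DS. All 7 tested members had positive log2 differences in each of these groups, with medians of 3.93 (Si NPs), 4.25 (CNCs) and 4.23 (DS). These comparisons share the CK libraries, and none of the 7 passed the test in them. Members near 0 in CK passed the filter only through groups where they were higher, so positive signs were partly set in advance. DREB1A-like (DN12892_c2_g1) stood at 0.58, 0 and 0.58 TPM in CK and 19.6, 31.4 and 84.8 TPM in DS (adjusted p = 0.0531). Putative DREB1A (DN6406_c0_g1) stood at 0, 1.04 and 0.63 TPM in CK and 9.65, 20.9 and 41.4 TPM in DS (adjusted p = 0.0838). Counts of at most 3 in a group were frequent here, so fitted folds depend on the prior count.

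**Figure D3:**
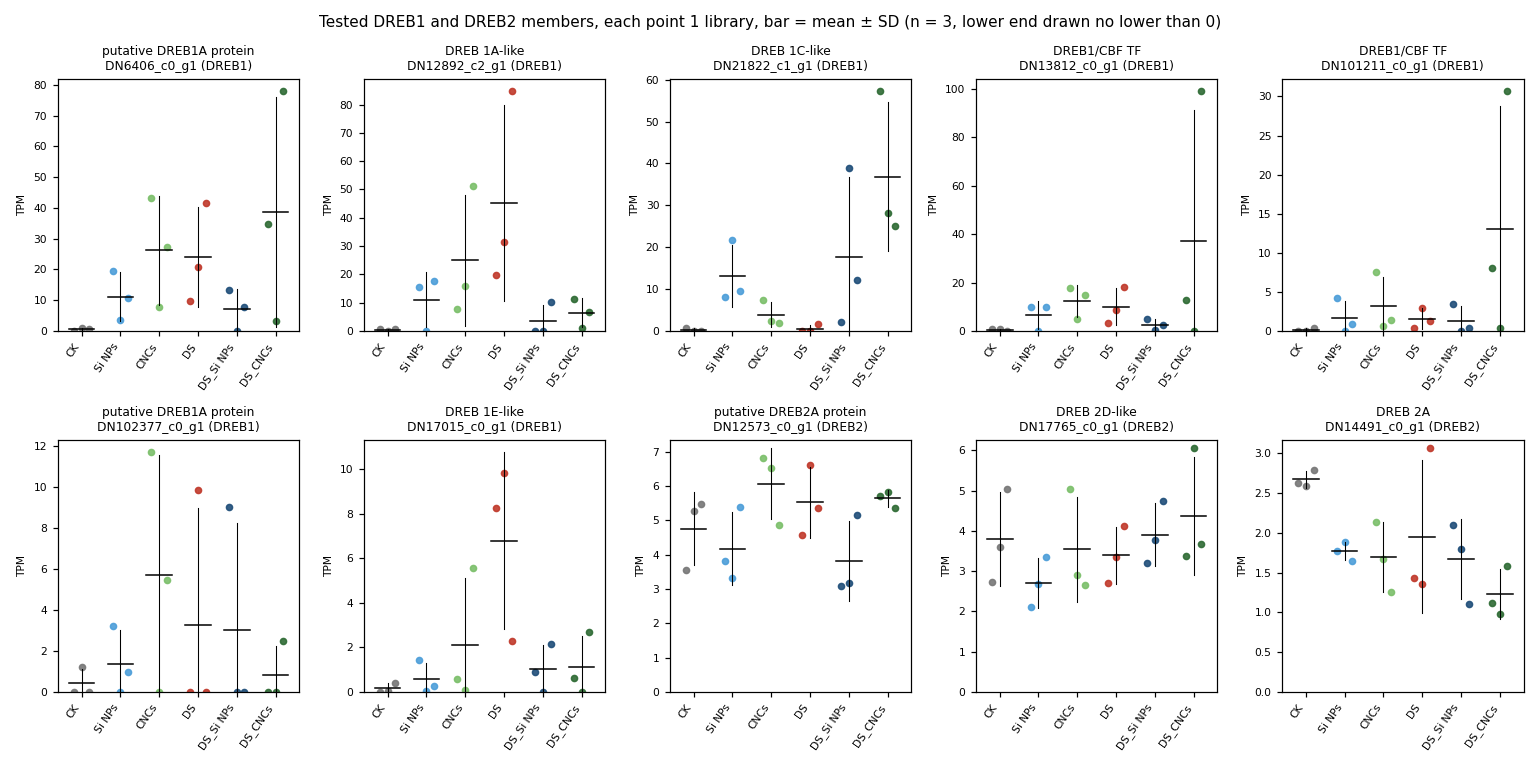
TPM of the 7 tested DREB1 and 3 tested DREB2 members, with 1 point for each library, a bar at the mean and a line of 1 SD (n = 3). DREB1 members sit near 0 in CK, and the 3 DREB2 members stay within a few TPM in all groups.

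Under normal conditions neither particle gave a call. With Si NPs, 0 of 91 members were called (1.03% of all unigenes), 25 had an unadjusted p below 0.05, and DESeq2 and edgeR's exact test called 12 and 6 (7.55% and 7.89% of all unigenes). The exact test covered only 49 members here. With CNCs, 0 were called (0.377% of all unigenes), 30 had an unadjusted p below 0.05, and the same tools called 14 and 17 (5.14% and 7.23%). For CNCs the exact test covered 61 members. In 37 members (40.7%) all CNCs libraries lay above all CK libraries and in 5 (5.49%) below, against 22.5% and 8.93% of all unigenes. With Si NPs these members were 11 (12.1%) above and 8 (8.79%) below, against 13.0% and 17.8%. These counts use TPM, on which the median log2 difference of all unigenes was shifted by 0.15 in CNCs and by -0.17 in Si NPs from that of the test. The median log2 difference was 0.80 with CNCs and 0.46 with Si NPs, compared with 0.08 and 0.07 for all unigenes. The touch or wound list summed to 3916 to 5936 TPM in CNCs and 1240 to 2330 TPM in Si NPs, and its part in these differences was not tested. Other lists also moved with CNCs. Unigenes of dividing young tissue (histones, cyclins and the like) summed to 4795 to 5575 TPM in CNCs and 3295 to 3895 TPM in CK, and the leaf mesophyll list to 49416 to 61970 TPM in CNCs and 59869 to 118161 TPM in CK. Their part was not tested either.

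The members nearest to a call went both ways. ERF9 (DN41151_c0_g1) held 0.97, 2.18 and 0.97 TPM in CK, 57.8, 3.76 and 27.2 TPM in Si NPs and 84.7, 27.1 and 84.5 TPM in CNCs. Its log2 differences were 5.03 ± 1.43 (adjusted p = 0.0781) and 5.72 ± 1.46 (adjusted p = 0.0765). ERF3-like (DN10813_c0_g1) stood at 1.41, 5.35 and 3.60 TPM in CK and at 94.5, 59.6 and 122.9 TPM in CNCs (4.17 ± 1.12, adjusted p = 0.0876). The unigene described as transcription factor AP2 (DN951_c1_g1) was lower with both particles: 28.2, 45.0 and 35.9 TPM in CK, 13.9, 15.8 and 16.2 TPM in Si NPs and 17.6, 15.1 and 23.2 TPM in CNCs. Its differences were -1.27 ± 0.34 (adjusted p = 0.0696) and -1.36 ± 0.34 (adjusted p = 0.0748), and the groups did not overlap.

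Under drought, Si NPs changed 3 of 91 members compared with DS, with 1 higher and 2 lower (3.39% of all unigenes called, 2.34% higher and 1.04% lower). CNCs changed 7, with 2 higher and 5 lower (5.8% of all unigenes, 3.48% higher and 2.32% lower). DESeq2 called 12 members in each (9.44% and 12.6% of all unigenes). In 20 members (22.0%) all DS_Si NPs libraries lay below all DS libraries and in 7 (7.69%) above, against 11.7% of all unigenes each way. For DS_CNCs these were 15 (16.5%) and 8 (8.79%), against 12.0% and 18.4%. The median log2 difference of members was -0.52 with Si NPs and -0.08 with CNCs, and 0.14 and 0.10 for all unigenes. DREB1C-like (DN21822_c1_g1) was the only member to rise with both. It held 0, 0 and 1.66 TPM in DS, 2.17, 39.0 and 12.2 TPM in DS_Si NPs and 57.3, 28.1 and 25.0 TPM in DS_CNCs. Against 3 counts in DS, the ratios were 25.6 with Si NPs (counting interval 8.44 to 127, adjusted p = 0.0373 in edgeR) and 63.7 with CNCs (21.5 to 311, adjusted p = 0.0150). In watered plants it stood at 0.71, 0 and 0 TPM in CK, 8.08, 21.6 and 9.49 TPM in Si NPs and 7.44, 2.35 and 1.98 TPM in CNCs, where it missed the threshold with Si NPs (adjusted p = 0.0529). It was thus low in both groups without a particle and higher in every library with one. By the Methods only the particle groups also received the surfactant, and its part was not tested.

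ERF061 (DN21101_c0_g1) fell with both particles. DS_Si NPs libraries stood at 3.28, 3.80 and 3.06 TPM and DS_CNCs libraries at 2.48, 0.11 and 1.33 TPM, against 3.35, 17.6 and 11.4 TPM in DS. The differences were -3.15 ± 0.82 (adjusted p = 0.0378) and -3.71 ± 0.84 (adjusted p = 0.0160). The DS and DS_Si NPs libraries overlapped. With Si NPs, ERF12-like (DN14626_c0_g1) fell as well, to 1.10, 1.13 and 2.24 TPM (-4.0 ± 1.08, adjusted p = 0.0429). These comparisons share the DS libraries with each other and with the drought comparison. Members called in CK vs DS were 2 of the 3 called with Si NPs and 2 of the 7 called with CNCs.

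With CNCs, another 4 members fell and 1 more rose. ERF4 (DN24806_c0_g1) went from 33.2, 13.2 and 53.8 TPM in DS to 1.15, 1.52 and 1.97 TPM (-4.17 ± 1.07, adjusted p = 0.0267). ERF026-like (DN17550_c0_g1) went from 5.89, 9.45 and 9.40 TPM to 0.21, 0 and 0.48 TPM (-4.73 ± 1.23, adjusted p = 0.0277). ERF025-like (DN50323_c0_g1) and an ERF109-like member (DN43981_c0_g1) fell by 4.88 ± 1.41 and 5.07 ± 1.53 on the log2 scale. RAP2-3-like (DN57051_c0_g3), related to the oxygen-sensing factors of Arabidopsis, rose from 5 counts and at most 0.05 TPM in DS to 0.16, 1.20 and 1.82 TPM (4.54 ± 1.37, adjusted p = 0.0492). The RAP2-13-like member with the clearest drought rise (DN1399_c0_g2) stood at 4.10, 7.63 and 5.01 TPM in DS_CNCs and 5.91, 6.09 and 7.52 TPM in DS_Si NPs, below all DS libraries. Its log2 difference with CNCs, -1.43 ± 0.30 (adjusted p = 0.0113), was short of the fold threshold. TaAP2-A (DN2180_c0_g1), an AP2 homolog of wheat, stood at 20.0, 19.0 and 12.2 TPM in DS and 41.6, 59.01 and 26.02 TPM in DS_CNCs, a difference of 1.04 ± 0.28 (adjusted p = 0.0335).

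The other member named in these comparisons was the AP2-associated protein kinase (DN7081_c0_g1), which is no transcription factor. It held 8.53, 12.1 and 12.0 TPM in DS, 4.58, 3.51 and 6.07 TPM in DS_Si NPs and 4.83, 7.17 and 5.05 TPM in DS_CNCs, differences of -1.10 ± 0.24 (adjusted p = 0.0199) and -0.87 ± 0.24 (adjusted p = 0.0330).

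The calls under drought also depended on libraries. Of the 7 calls with CNCs, 2, 1 and 5 remained without DS replicate 1, 2 or 3, and 2, 1 and 3 without DS_CNCs replicate 1, 2 or 3. Of the 3 calls with Si NPs, 1, 0 and 3 remained without DS replicate 1, 2 or 3, and 1, 0 and 1 without DS_Si NPs replicate 1, 2 or 3. The 12 drought members showed the unequal libraries. They were picked as high in DS, so a place below DS was partly set in advance for other libraries. DS_Si NPs replicates 1, 2 and 3 lay below all DS libraries in 11, 11 and 9 of the 12. For CNCs replicates 1, 2 and 3 these numbers were 12, 11 and 9. DS_CNCs replicate 3 lay below all DS libraries in 4 of the 12, within their range in 6 and above in 2, while DS_CNCs replicates 1 and 2 lay below in all 12. The touch or wound list summed to 2555, 1280 and 6061 TPM in these libraries, in the order of the members' own sums, and its part in the result was not tested.

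**Figure D4:**
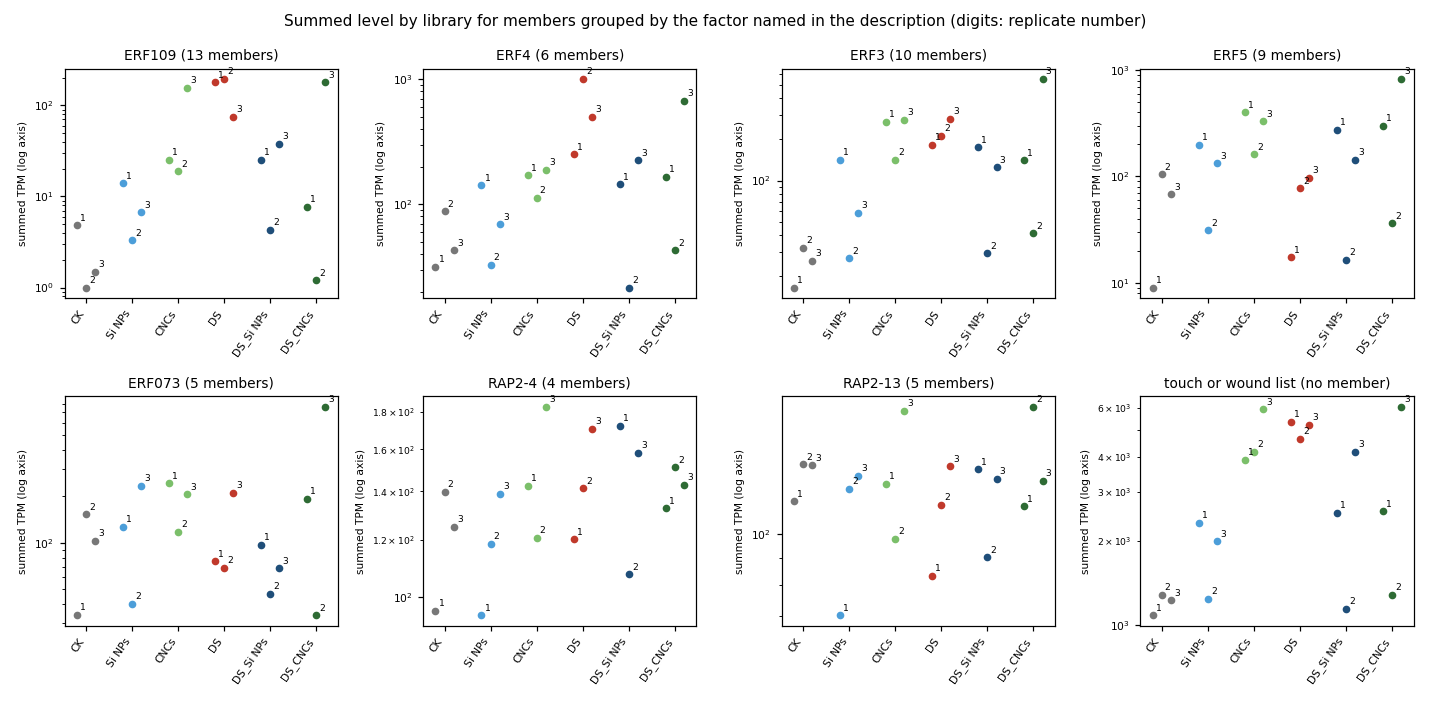
Summed TPM on a log axis by library for 7 kinds of members and for the touch or wound list, with the replicate number beside each point. In ERF109, ERF4, ERF3 and ERF5 the DS_CNCs libraries run from near the CK level (replicate 2) to the level of DS or above (replicate 3), while RAP2-4 stays between 94.5 and 183 TPM.

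Sums of the ERF5-, ERF3- and ERF073-type members are given here side by side. The 9 ERF5-type members, whose Arabidopsis namesake acts in defence, summed to 9.0, 105 and 67.8 TPM in CK and 17.3, 77.4 and 97.6 TPM in DS, so these groups overlapped. They summed to 403, 162 and 331 TPM in CNCs and 298, 36.2 and 827 TPM in DS_CNCs. The 10 ERF3-type members summed to 16.5, 32.1 and 26 TPM in CK, 183, 211 and 282 TPM in DS and 269, 141 and 278 TPM in CNCs, so both groups lay above CK and overlapped each other. The 5 members described as ERF073-like, after a low-oxygen factor of Arabidopsis, ranged from 33.8 TPM in DS_CNCs replicate 2 to 762 TPM in DS_CNCs replicate 3. No member of these 3 kinds was called in any comparison.

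The remaining comparisons gave no calls. Between Si NPs and CNCs, 0 members were called under normal conditions (10 at an unadjusted p below 0.05, 1 with DESeq2 and 3 with edgeR's exact test) and 0 under drought (9, 1 and 0). Drought changed 0 members in plants given Si NPs (13, 0 and 0) and 0 in plants given CNCs (8, 2 and 2). In this order, the exact test covered 66, 70, 62 and 73 members. All-unigene shares in the same order were 0.0411%, 0.0%, 0.0197% and 0.0411%, with DESeq2 0.843%, 0.802%, 1.11% and 1.82%, and with the exact test 2.4%, 0.39%, 0.626% and 3.63%. The interaction of CNCs with drought, which asks whether the particle acted differently under drought, gave 0 calls (30 at an unadjusted p below 0.05, 14 with DESeq2), against 1.96% of all unigenes and 5.98% with DESeq2. That of Si NPs gave 0 (23 and 8), against 0.263% and 3.22%. Median interaction terms were -0.84 and -0.85 for members, and 0.01 and 0.06 for all unigenes.

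Across the 6 groups, 17 of 91 members (18.7%) differed, compared with 8.23% of all unigenes. Without DS replicate 2 these were 4, without CK replicate 1, 2 or 3 they were 11, 11 and 9, and DESeq2 called 38 (21.8% of all unigenes). Group means were highest in DS for 33 members (36.3%, against 14.5% of all tested unigenes) and lowest in CK for 41 (45.1%, against 22.1%). By library, DS replicate 2 and DS_CNCs replicate 3 were each the highest in 22 members. The lowest adjusted p values belonged to RAP2-13-like DN1399_c0_g2 (0.00141), ERF061 DN21101_c0_g1 (0.00571), ERF026-like DN17550_c0_g1 (0.00688) and ERF12-like DN14626_c0_g1 (0.00689). One RAP2-13-like fragment (DN51426_c0_g1) went the other way, with 42.4, 31.3 and 45.5 TPM in CK, 0.67, 4.29 and 0 TPM in Si NPs and 8.17, 6.79 and 0 TPM in DS (adjusted p = 0.0479 over the groups). This fragment was singled out after its values were seen.

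**Figure D5:**
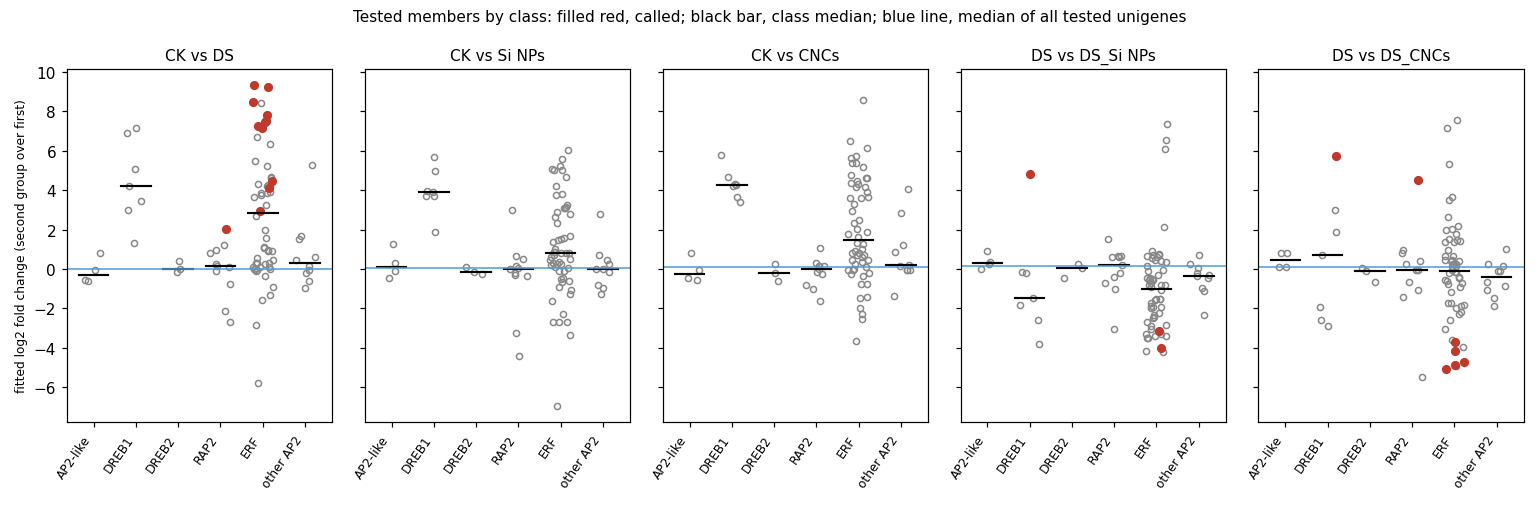
Fitted log2 difference of each tested member by class in the 5 main comparisons, the second group over the first. Filled red points are called, black bars are class medians and the blue line is the median of all tested unigenes. Calls lie mostly among the ERFs, and the DREB1 medians near 4 in the 3 comparisons with CK are well above those of DREB2.

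The ethylene pathway upstream of these factors was followed in 92 unigenes for ACC synthase and oxidase, receptors, CTR1, EIN2, EIN3 and EBF proteins, 64 of them tested. Its sum was 623 to 784 TPM in CK, 794 to 1336 TPM in DS and 912 to 1293 TPM in CNCs, so both lay above CK. In DS, 0 unigenes rose and 1 fell (1.56% called, against 2.01% of all unigenes), while 22 had an unadjusted p below 0.05. The one that fell was an ACC oxidase homolog (DN17852_c0_g1) that went from 14.4, 13.9 and 14.7 TPM to 3.30, 4.11 and 3.71 TPM (-2.24, adjusted p = 0.0317). With CNCs under drought 2 rose (3.12%, against 3.48% of all unigenes called higher): an ACC oxidase homolog (DN13055_c1_g1; 4.02, adjusted p = 0.0291) and an EIN3-like 1 protein (DN30107_c0_g1; adjusted p = 0.0497). The EIN3-like unigene held 0, 0.38 and 0 TPM in DS and 13.7, 1.61 and 11.7 TPM in DS_CNCs. Both ACC oxidase homologs were described as homolog 1-like and entered the list by name. Whether they act in the ethylene pathway was not tested. The interaction of Si NPs with drought was called for a CTR1 kinase (DN8350_c0_g1; 2.18, adjusted p = 0.0445), a brake on ethylene signalling. The median of the list under drought was 0.00. The most abundant of these unigenes were an ACC oxidase (DN20227_c0_g1), the enzyme that releases ethylene, with 8.84, 51.8 and 23.7 TPM in CK and 246, 285 and 131 TPM in DS, and EIN3-binding F-box protein 1 (DN25597_c0_g1), with 61.8, 52.0 and 57.5 TPM in CK and 113, 155 and 97.8 TPM in DS. Neither was called, but the F-box protein passed the adjusted p with a difference of 1.10 ± 0.26 (adjusted p = 0.0317).

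LEA proteins, dehydrins and products described as cold-regulated or cold-responsive, many of them DREB targets in other plants, were followed in 35 unigenes, 30 of them tested. In DS 3 rose and 0 fell (10.0%, against 1.59% of all unigenes called higher), with a list median of 2.06. Under drought, 6 fell with CNCs (20.0%, against 2.32% called lower) and 3 with Si NPs (10.0%, against 1.04%). A group 3 LEA protein (DN325_c0_g1) stood at 452, 298 and 390 TPM in CK, 437, 2517 and 840 TPM in DS, 284, 261 and 254 TPM in DS_Si NPs and 210, 146 and 184 TPM in DS_CNCs. It rose by 2.11 in DS (adjusted p = 0.0350) and fell by 2.46 and 3.22 with the particles (adjusted p = 0.0190 and 0.00419). A LEA6-like protein (DN3518_c0_g1) held 24.0, 421 and 126 TPM in DS and 2.98, 1.30 and 7.08 TPM in DS_CNCs (-5.73, adjusted p = 0.00443). A cold-responsive protein kinase (DN7682_c0_g1), whose Arabidopsis namesake acts on DREB1 signalling and is not known as a DREB target, rose in DS from 6.60, 7.39 and 7.72 TPM to 68.9, 52.0 and 63.2 TPM (3.08, adjusted p = 0.0339). A cold acclimation protein of the WCOR413 type (DN37935_c0_g1) fell with CNCs under normal conditions, from 21.8, 15.2 and 18.8 TPM to 6.73, 5.13 and 3.16 TPM (-2.11, adjusted p = 0.0195). The 2 most abundant of the list, At5g17165-type LEA (DN3211_c0_g1) and Lea5 (DN17784_c0_g1), reached 1251 and 2300 TPM in DS. Neither was called, but the former passed the adjusted p in DS with a difference of 1.13 ± 0.22 (adjusted p = 0.0133).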

How the data were processed

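The members, the gene lists and the tests were chosen with earlier results of these data known. From trimmed reads (Cutadapt, FastQC) the authors built the unigenes with Trinity, described them by DIAMOND matches and ran Salmon. Estimated counts, deposited by the authors as Salmon gives them, were rounded, as 452055 of the values hold decimals. TPM values came from the same Salmon runs and were deposited by the authors. How strand entered the counting is not given in the sources used here.

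Library totals were 16175624 to 26102122 counts. Counts were filtered with filterByExpr (55979 of 109684 unigenes kept), scaled by TMM and fitted over all 18 libraries with edgeR 4.0.16 (R 4.3.3, limma 3.58.1) by the legacy quasi-likelihood method, with the thresholds that the Methods state and no replicate block. Standard errors are the log2 difference over the root of F. The method was also run on simulated counts. These lacked the unequal spread of the groups here, so no conclusion is drawn from them. Folds against a group with 3 counts or fewer carry a 95% exact interval that covers counting error only.

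Named members were, in each of 11 comparisons, the 4 higher and the 4 lower called members of lowest adjusted p, the 3 of lowest adjusted p in each of 5 main comparisons, the 10 of lowest adjusted p over the 6 groups and the 2 most abundant of each class. In the ethylene and DREB target lists they were the 2 called unigenes of lowest adjusted p in each comparison and the 2 most abundant. Other members named, and the kinds of ERF grouped by the number in their description, were chosen after their values were seen.

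Alternatives were RLE scaling, DESeq2 1.42.0, edgeR's exact test, no filter, limma-trend on log2(TPM + 0.5), a log2 threshold of 1, the replicate block, only the groups compared, and each library left out. The default of edgeR 4 was added after the data were seen. Lists for dividing tissue, flower or seed, and the clock were made as checks. They held 122, 26 and 48 unigenes, tested or not, of which 0, 0 and 1 rose and none fell in DS.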

Additional observations from a re-analysis of the deposited data

Results flagged for a closer look

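One member passed the adjusted p in a test of whether a particle acted differently under drought, though not the fold threshold. For ERF1 isoform X1 (DN9433_c0_g1) the interaction of CNCs with drought was -0.82 ± 0.20 on the log2 scale (adjusted p = 0.0431 in edgeR). It stood at 37.5, 48.6 and 39.9 TPM in CK, 70.1, 67.0 and 65.0 TPM in CNCs, 41.7, 52.9 and 64.3 TPM in DS and 69.7, 50.1 and 58.7 TPM in DS_CNCs. All CNCs libraries lay above all CK libraries, and the DS and DS_CNCs libraries overlapped. On counts, the fitted difference from CK to CNCs was 0.36 ± 0.14 (adjusted p = 0.201 in edgeR). That from DS to DS_CNCs was -0.46 ± 0.14 (adjusted p = 0.0564 in edgeR), a fall that the TPM values did not show.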

How the results depend on the processing

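The number of members called depended on the tool. DESeq2 called 29 in CK vs DS, 12 in CK vs Si NPs, 14 in CK vs CNCs, 12 in DS vs DS_Si NPs, 12 in DS vs DS_CNCs, 2 in CNCs vs DS_CNCs, 1 in Si NPs vs CNCs, 1 in DS_Si NPs vs DS_CNCs, 8 and 14 in the Si NPs and CNCs interactions and 38 over the 6 groups. The edgeR 4 default called 25, 2, 2, 14, 16, 2, 2, 0, 0, 6 and 33 in the same order, where 4.95, 3.89, 2.5, 7.31, 12.3, 1.52, 0.284, 0.0643, 0.552, 4.25 and 22.2% of all unigenes were called. The exact test called 26, 6 and 17 in the comparisons with CK, 4 in DS vs DS_Si NPs and 10 in DS vs DS_CNCs. It covered 72, 49, 61, 75 and 78 members in these. It also called 2 in CNCs vs DS_CNCs and 3 in Si NPs vs CNCs. Of all unigenes, it called 5.23% in DS vs DS_Si NPs and 11.2% in DS vs DS_CNCs. On log2 TPM, limma called 19 in CK vs DS, 3 in CK vs Si NPs, 8 in DS vs DS_Si NPs and 7 in the CNCs interaction (1.6, 1.34, 2.13 and 1.33% of all unigenes). It called 9 in DS vs DS_CNCs and 20 over the 6 groups (4.84 and 6.59% of all unigenes). For limma, 126 members were tested. With only the groups compared in the fit, the counts were 22 in CK vs DS, 2 in CK vs Si NPs, 14 in CK vs CNCs, 0 in DS vs DS_Si NPs, 2 in DS vs DS_CNCs and 3 in the CNCs interaction (3.78, 3.81, 4.63, 0.0, 4.54 and 2.9% of all unigenes). These fits covered 72, 49, 61, 75, 78 and 87 members. With no filter, 0 were called in DS vs DS_Si NPs. The cause of these differences was not tested.

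With the replicate block, 13 members were called in CK vs DS, 0 in DS vs DS_Si NPs, 4 in DS vs DS_CNCs, 3 in the CNCs interaction and 13 over the 6 groups. The share of all unigenes called with the block is not given here, so these counts cannot be read as particular to the members. The numbers do not pair the libraries: of 45 correlations between same-numbered libraries 2 were over 0.1 (median 0.004), and no library matched its own number best in every other group.

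With 1 library left out, the calls ranged from 0 to 11 in CK vs DS, 0 to 3 in DS vs DS_Si NPs, 1 to 7 in DS vs DS_CNCs, 0 to 1 in the Si NPs interaction, 0 to 9 in the CNCs interaction (9 without DS_CNCs replicate 3) and 4 to 25 over the 6 groups (4 without DS replicate 2, 9 to 11 without a CK library). They stayed at 0 in the other comparisons. Apart from 0.239% in CK vs DS without CK replicate 3, shares of all unigenes are not given for these fits. Their counts therefore cannot be read as particular to the members. Among the results of named members that were checked, at most 31 for each alternative, none changed direction. Results of the test over the 6 groups carry no direction. Other comparisons of named members were not part of this check. RLE scaling moved the median of all unigenes by at most 0.04 in size, and TPM moved it by up to 0.33 (Si NPs vs CNCs). As a limit of depth, 3 tested members had 0 counts in all CK libraries.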
